A study of Drosophila melanogaster with 8 samples.

Results

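The genes described here encode the eggshell of Drosophila melanogaster: its inner vitelline membrane, its outer chorion and proteins deposited with them. A list of 38 gene symbols was matched to the gene identifiers of the deposited RNA-seq tables, and all 38 were found among 13776 genes. Of these, 37 had enough counts to be tested. The peroxidase gene Pxd was not tested, with 0 counts in both controls and 1 and 5 counts in knockdown 1 and knockdown 2. The list was divided into 7 vitelline membrane genes (Vm26Aa, Vm26Ab, Vm26Ac, Vm32E, Vm34Ca, Vml and psd), 5 early chorion genes (Cp36, Cp38, Cp7Fa, Cp7Fb and Cp7Fc) and 4 late chorion genes (Cp15, Cp16, Cp18 and Cp19). The others were 3 genes listed as crosslinking enzymes (Pxd, yellow-g and yellow-g2), 3 mucin genes, 2 further named genes (Fcp3C and Femcoat) and 14 genes known by CG symbols only.

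RNA was taken from whole ovaries of females aged 0 to 4 days, about 100 ovaries for each of 4 poly(A)+ libraries read as single ends of 50 nt. The 2 control libraries came from the F1 of tj-Gal4 and the VDRC line #60000, and the 2 knockdown libraries from the F1 of tj-Gal4 and a line for HP1a RNAi. All 4 libraries carry tj-Gal4, a driver of the somatic cells of the ovary, and hold germline RNA together with somatic RNA. The line crossed to the driver differs between the groups too, so its effects and those of the RNAi cannot be told apart, and separate crosses for the replicates are not stated, so p-values measure only the spread between these samples.

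The eggshell is built by the somatic follicle cells that surround the growing oocyte. They secrete the vitelline membrane proteins first, and then switch to chorion proteins, the early ones before the late ones. A chorion gene cluster on the X chromosome and another on arm 3L are amplified in follicle cells, which raises the number of gene copies available for this short burst of transcription. In order along the chromosome, Cp7Fa, Cp7Fb, Cp7Fc, Cp36 and Cp38 followed each other on the X. Likewise, Cp18, Cp15, Cp19 and Cp16 followed each other on 3L. No other protein-coding gene lay between the members of either run. Vm26Ab, Vm26Ac, Vm26Aa, psd and CG13992 formed another run of 5 neighbours on 2L. In all, 25 members stood in 7 runs of neighbours, 6 of them with no other protein-coding gene between members. The other run, on 2L (CG31928, CG31926 and CG31661), held a single one. The members were spread over arms 2L (13), 3L (8), 3R (2) and the X (15).

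The estimated counts summed to between 18671653 (knockdown 1) and 38330979 (knockdown 2) per library, so that 3 counts corresponded to 0.0736 to 0.158 CPM (counts per 1000000, scaled by TMM). The HP1a transcript itself, Su(var)205, had 253 CPM in control 1, 229 in control 2, 224 in knockdown 1 and 236 in knockdown 2 (log2 fold change -0.06, SE 0.11, edgeR adjusted p = 0.677). It did not differ detectably in whole-ovary RNA, and the knockdown libraries are called so after their labels. Of the 8 follicle cell markers, 7 were lower in the knockdown libraries at an edgeR adjusted p under 0.05, as were 16.1% of all genes. None was at 0, and the other marker, Fas3, did not pass (log2 fold change 0.23, SE 0.23, edgeR adjusted p = 0.469). The summed level of the 8 was 5793 and 7458 CPM in the controls and 658 and 1261 CPM in the knockdown libraries. The yolk protein genes Yp1, Yp2 and Yp3 made up most of it, with 5200 and 7066 CPM in the controls and 539 and 1140 CPM in the knockdown libraries. Germline markers, of which 6 of 8 were matched, summed to 4041 and 3457 CPM in the controls and to 2921 and 3026 CPM in the knockdown libraries. Most of that sum was osk and orb, which did not pass the test, while bam and bcd rose (log2 fold changes 1.77 and 1.18) and grk fell (-0.95). In whole-ovary RNA, fewer cells of a type and less RNA per cell cannot be told apart, and the part of follicle cell content in the values below was not tested.

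In CPM, all 7 vitelline membrane genes were lower in both knockdown libraries than in both controls, as were 37.7% of all genes tested. The 7 genes kept 1 order: control 2 highest, then control 1, knockdown 2 and knockdown 1. The 3 most abundant, Vm34Ca, Vm26Aa and Vm26Ab, encode the main structural proteins of the membrane. Vm34Ca stood at 8285 and 23734 TPM (transcripts per 1000000, a level per length) in control 1 and control 2 and at 1110 and 5286 TPM in knockdown 1 and knockdown 2. Vm26Aa stood at 7922 and 18751 TPM in the controls and at 860 and 4557 TPM in the knockdown libraries. Vm26Ab stood at 8565 and 16857 TPM in the controls and at 483 and 2686 TPM in the knockdown libraries. By TPM, Vm34Ca, Vm26Aa and Vm26Ab ranked 9, 12 and 7 of the whole library in control 1 and 2, 3 and 4 in control 2. In knockdown 1 they ranked 136, 161 and 254, but in knockdown 2 they ranked 8, 12 and 54. The ranks of Vm34Ca and Vm26Aa in knockdown 2 were thus no lower than in control 1.

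The other vitelline membrane genes lay lower in level. Vm32E stood at 498 and 1856 TPM in control 1 and control 2 and at 79.9 and 365 TPM in knockdown 1 and knockdown 2. Vml, a vitelline membrane-like gene, stood at 375 and 845 TPM and at 35.7 and 180 TPM. The groups did not overlap for either gene. The gene psd (palisade), whose product is needed to assemble the vitelline membrane, stood at 231 and 516 TPM in the controls and at 24.8 and 128 TPM in the knockdown libraries. Vm26Ac was the least abundant, with 48.3 and 250 TPM in the controls and 11.1 and 66.9 TPM in the knockdown libraries. Its groups overlapped in TPM, and in CPM they were barely apart, with 19.6 in control 1 and 18.8 in knockdown 2. The scales differ between the groups. Over all genes tested, the median log2 fold change, knockdown minus control, was 0.50 on TPM plus 1 and 0.02 with TMM scaling.

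**Figure D1:**
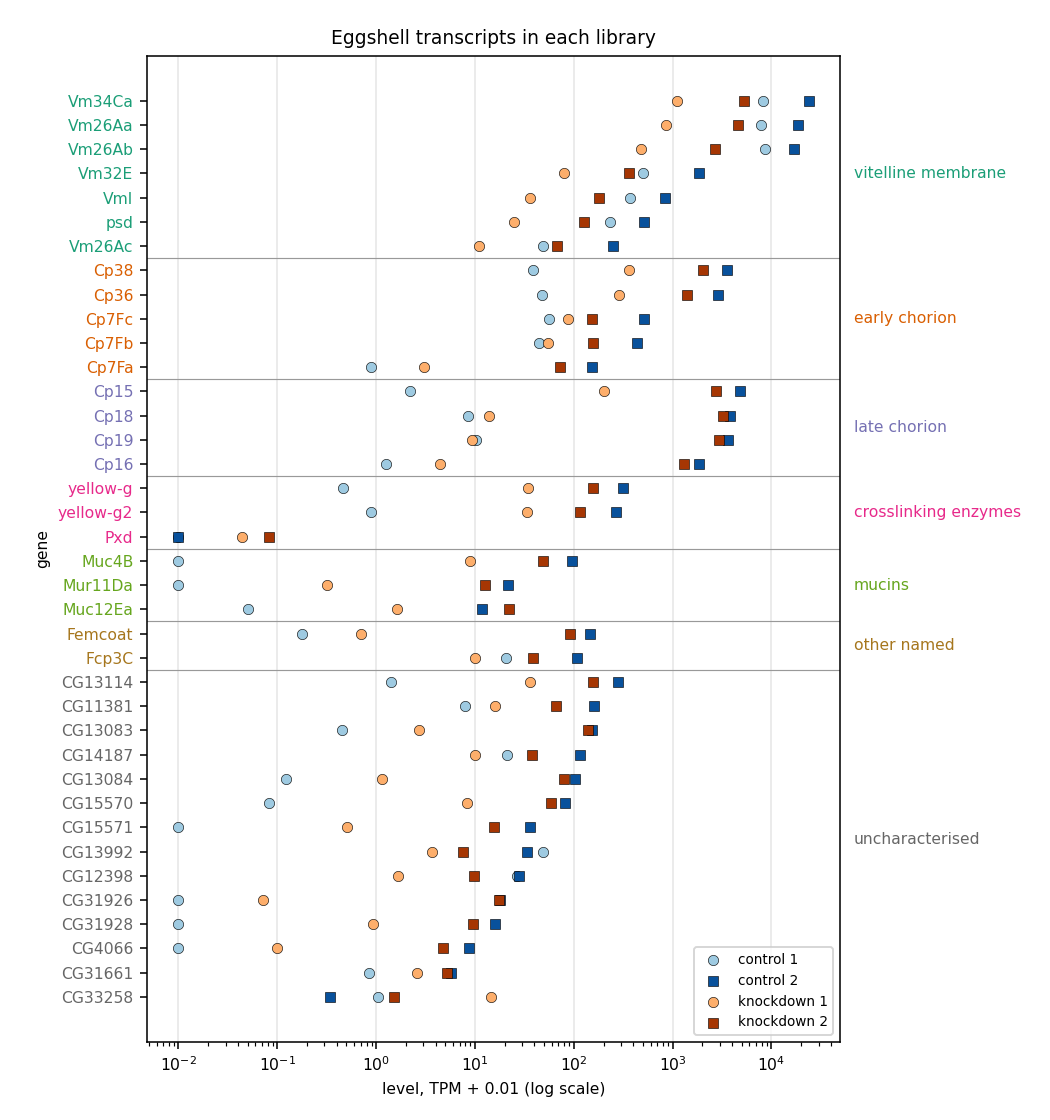
Level of each eggshell gene in each of the 4 libraries, in TPM on a log10 axis after adding 0.01, with genes grouped by class and 1 point per library (circles for libraries numbered 1, squares for those numbered 2). The vitelline membrane genes keep the controls above the knockdown libraries, except Vm26Ac (48.3 TPM in control 1, 66.9 TPM in knockdown 2), while most chorion genes have control 1 at the bottom, as for Cp15 at 2.21 TPM in control 1 against 4787 TPM in control 2.

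In the edgeR quasi-likelihood test with Benjamini-Hochberg adjustment over all 8798 genes, 2 of 37 members fell past an adjusted p of 0.05 in the knockdown libraries and 0 rose, against 27.9% of all genes called in either direction, 16.1% lower and 11.8% higher. In this fit the share of members called was below that of all genes. One of the called members was Vm26Ab, which fell 11.4-fold (log2 fold change -3.51, SE 0.89, edgeR adjusted p = 0.0441). The other was CG13992, at the opposite end of the same run of 5 genes on 2L, which fell 10.4-fold (log2 fold change -3.38, SE 0.43, edgeR adjusted p = 0.0218). An unadjusted p under 0.05 was reached by 8 of 37 members, 6 of them vitelline membrane genes, and by 48.1% of all genes. With DESeq2, 8 of 37 members were lower, beside 19.6% of all genes, and 1 (CG33258) was higher, beside 18.1%.

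The remaining vitelline membrane genes had smaller fold changes than Vm26Ab, of 5.31-fold (Vm26Ac) to 8.02-fold (Vml), and missed the threshold. In the edgeR fit, Vml had a log2 fold change of -3.004 (SE 0.86, adjusted p = 0.0536), Vm32E of -2.90 (SE 0.93, adjusted p = 0.0671) and Vm34Ca of -2.83 (SE 0.89, adjusted p = 0.0648). Vm26Aa had -2.80 (SE 0.88, adjusted p = 0.0651), psd -2.79 (SE 0.84, adjusted p = 0.0599) and Vm26Ac -2.41 (SE 1.07, adjusted p = 0.135). The median of the 7 was -2.83 on the log2 scale, beside 0.02 over all genes tested. With a library left out, 1 group holds a single library that is assumed to vary like the other group. Of the 37 members, 5 were then lower without control 1, where 15.1% of all genes were, and 1 without control 2, where 23.8% were. Without knockdown 1, 3 were lower beside 2.11% of all genes, and without knockdown 2, 9 were lower beside 2.92%, so that in these fits the share of members was above that of all genes. Vm26Ab lost its call without control 2 (log2 fold change -2.96, adjusted p = 0.0619), and CG13992 kept its call without each library in turn.

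The early chorion genes of the X cluster were highest in control 2 and, in TPM, lowest in control 1. Cp36 and Cp38 encode the major early chorion proteins. Cp36 stood at 48.0 TPM in control 1 and 2865 TPM in control 2, and at 290 and 1408 TPM in knockdown 1 and knockdown 2. Cp38 stood at 38.3 and 3548 TPM in the controls and at 360 and 2009 TPM in the knockdown libraries. Both knockdown libraries therefore lay between the controls for these genes. Cp7Fa was scarce in both libraries numbered 1, at 0.876 TPM in control 1 and 3.01 TPM in knockdown 1, against 154 and 72.4 TPM in control 2 and knockdown 2. Cp7Fb stood at 44.5 and 434 TPM in the controls and at 55.3 and 158 TPM in the knockdown libraries, and Cp7Fc at 55.8 and 513 TPM and at 86.9 and 154 TPM. In CPM, Cp7Fb was lower in knockdown 1 (41.3) than in control 1 (73.6), so that its order of libraries on that scale differed from the other early genes.

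None of the early chorion genes passed the test, and the groups overlapped for all 5. By edgeR, Cp7Fb had a log2 fold change of -2.24 (SE 0.92, adjusted p = 0.115) and Cp7Fc of -1.74 (SE 0.97, adjusted p = 0.210). Cp7Fa had -1.504 (SE 2.04, adjusted p = 0.591), Cp36 -1.27 (SE 1.66, adjusted p = 0.576) and Cp38 -1.13 (SE 1.78, adjusted p = 0.646). For the last 3 of these the SE was larger than the fold change. The median of the class was -1.504 on the log2 scale.

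The late chorion genes of the 3L cluster differed most between libraries of the same group. Cp15 stood at 2.21 TPM in control 1 and 4787 TPM in control 2, and at 202 and 2757 TPM in knockdown 1 and knockdown 2. Cp18 stood at 8.59 and 3779 TPM in the controls and at 13.98 and 3259 TPM in the knockdown libraries. Cp19 stood at 10.3 and 3632 TPM in the controls and at 9.38 and 2956 TPM in the knockdown libraries. All 3 were scarce in control 1 and among the abundant transcripts of control 2 and knockdown 2. Cp16 stood at 1.26 and 1858 TPM in the controls and at 4.44 and 1319 TPM in the knockdown libraries. In rank by TPM, Cp15 went from 7389 in control 1 to 26 in control 2, and from 717 in knockdown 1 to 52 in knockdown 2.

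The groups overlapped for all 4 late chorion genes and none passed the edgeR test. The log2 fold changes were -1.18 for Cp15 (SE 2.42, adjusted p = 0.725), -0.97 for Cp16 (SE 2.66, adjusted p = 0.796), -0.78 for Cp19 (SE 2.65, adjusted p = 0.836) and -0.69 for Cp18 (SE 2.64, adjusted p = 0.853). Each SE was larger than the fold change it belongs to. The sign itself rested on single libraries. With a library left out, the class median ran from -7.87 to 7.79 for the late chorion genes and from -2.86 to 3.62 for the early ones, but only from -4.46 to -2.07 for the vitelline membrane genes. Without control 2, 7 of 37 members were called higher in the knockdown libraries (Cp15, Cp38, yellow-g, yellow-g2, Muc4B, CG15570 and CG13114), where 28.1% of all genes were called higher.

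**Figure D2:**
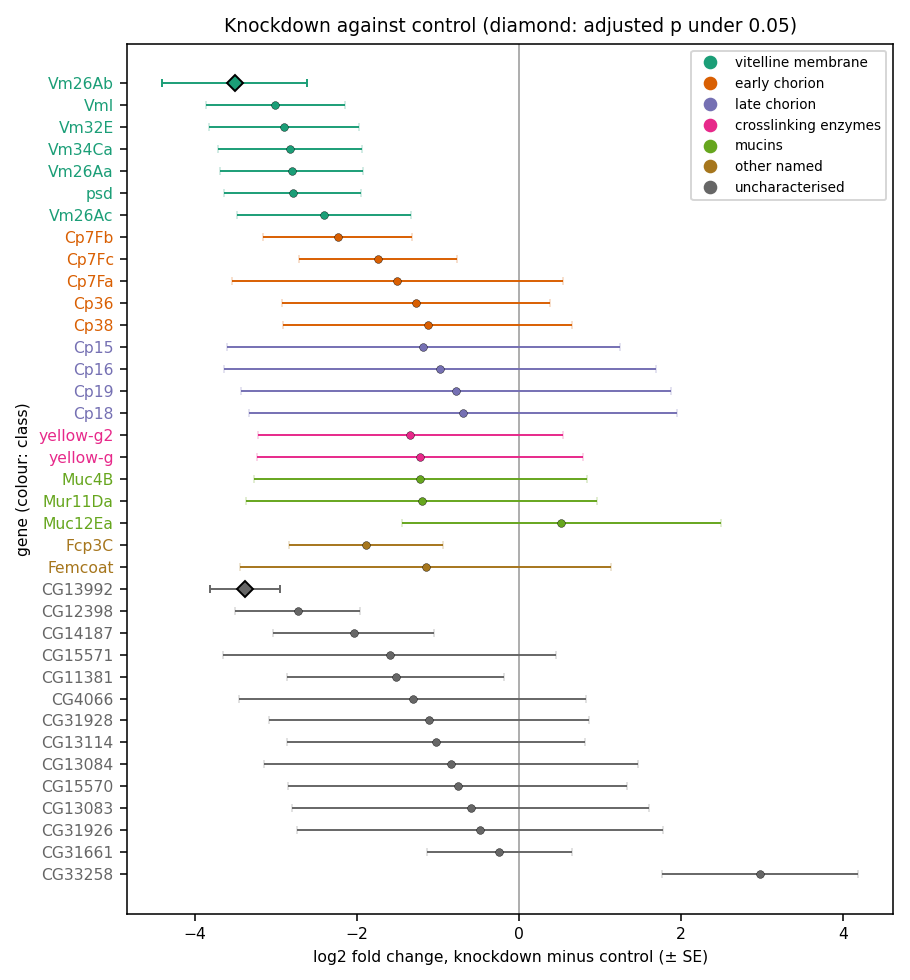
Log2 fold change of each tested member, knockdown minus control, with bars of 1 SE either way, genes coloured by class and diamonds for the called members. Bars widen from the vitelline membrane genes (SE 0.84 to 1.07) to the late chorion genes (SE 2.42 to 2.66), and the 2 called members are Vm26Ab and CG13992.

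The gap between the libraries numbered 1 and 2 ran through the whole set. In the controls, 35 of 37 members were higher in library 2, and in the knockdown group 36 of 37 were. A ratio of at least 4 in CPM, library 2 over library 1, was reached by 28 of 37 members in the controls, where 1.03% of all genes reached it, and by 30 of 37 in the knockdown group, where 0.682% did. The members made up 30.8% of the 91 genes past this ratio in the controls and 50% of the 60 in the knockdown group. The opposite ratio, library 1 over library 2 by at least 4, was reached by 0 members in the controls (1.23% of all genes) and by 1, CG33258, in the knockdown group (0.182%). The median over all genes tested was 0.00 in the controls and 0.01 in the knockdown group on the log2 scale. Each gap compares single libraries and has no replicate check. The members were chosen with earlier results of these data known, so these shares are a description and no test of the set. Some members had enough counts to be tested only through the libraries numbered 2. CG15571, for example, had 0 and 2 counts in control 1 and knockdown 1, against 206 and 129 in control 2 and knockdown 2.

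The size of the gap differed by class in the controls. The median gap was 2.30-fold for the vitelline membrane genes, 57.8-fold for the early chorion genes and 685-fold for the late chorion genes, on CPM plus 0.1. On the log2 scale the 3 ranges were 0.93 to 2.32, 2.82 to 7.23 and 8.39 to 10.82, and they did not overlap. Within the late class, Cp15 had 12 counts in control 1 and 26703 in control 2, a ratio of 2100 on the CPM scale with an exact 95% counting interval of 1202 to 4064. Cp16 had a ratio of 1434 (interval 696 to 3568), Cp18 of 427 (interval 338 to 548) and Cp19 of 344 (interval 278 to 431). In the early class, Cp36 had a ratio of 57.9 and Cp38 of 90.1, while Cp7Fb and Cp7Fc had ratios of 7.05 and 8.93. Of the vitelline membrane genes, Vm26Ac had the largest, at 5.03, and the other 6 stayed under 4.

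In the knockdown group the vitelline membrane and early chorion genes had similar gaps and the late chorion genes again had larger ones. The median gap was 5.31-fold for the vitelline membrane genes, 5.03-fold for the early chorion genes and 255-fold for the late chorion genes. The 7 vitelline membrane genes lay close together, from 2.23 to 2.61 on the log2 scale. The early class ran from 0.87 to 4.56, a range that encloses them. The late class ran from 3.82 to 8.30 and met the early class at its lower end. Cp15 stood apart from its class, with a ratio of 14.1 (interval 13.2 to 15.2) beside 308 for Cp16, 242 for Cp18 and 327 for Cp19. Cp7Fb and Cp7Fc had ratios of only 2.03 and 1.83. Across the 37 members the gaps in the 2 groups correlated at r = 0.658 and rho = 0.578, a description across genes that share 4 libraries; across all 8798 genes the values were 0.509 and 0.2998.

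**Figure D3:**
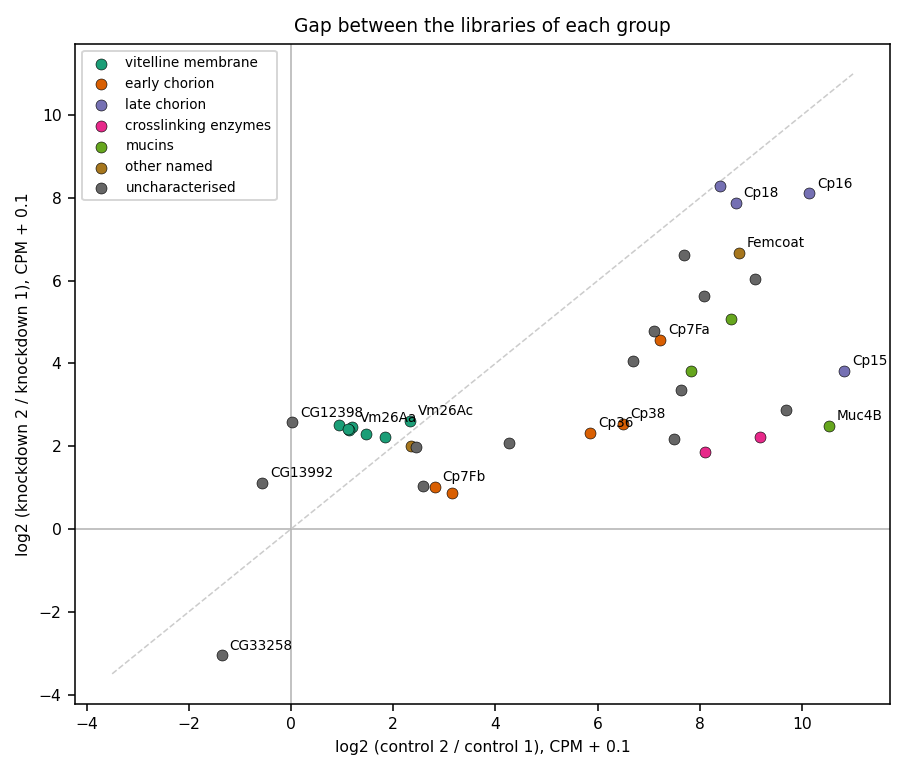
Gap of each tested member as the log2 ratio of library 2 to library 1 in CPM plus 0.1, with the controls on the x axis, the knockdown group on the y axis, 1 point per gene coloured by class and a dashed line where both are equal. Most points lie right of the line; the vitelline membrane genes lie left of it, with medians of 1.20 and 2.41, and Cp15 lies far from the other late chorion genes.

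Summed over classes in TPM, the balance of eggshell transcripts differed in every library. The vitelline membrane genes summed to 25923 TPM in control 1, 62810 in control 2, 2605 in knockdown 1 and 13267 in knockdown 2, which is 2.59%, 6.28%, 0.261% and 1.33% of all TPM. The early chorion genes summed to 187 and 7514 TPM in the controls and to 796 and 3801 TPM in the knockdown libraries. The late chorion genes summed to 22.3 and 14057 TPM in the controls and to 230 and 10291 TPM in the knockdown libraries. Of the 3 sums, that of the vitelline membrane genes separated the groups and the others overlapped. Of the TPM of all 38 members, the vitelline membrane genes took 98.7% in control 1, 72.7% in control 2, 68.2% in knockdown 1 and 46.6% in knockdown 2. The late chorion genes took 0.0849%, 16.3%, 6.03% and 36.2% in the same order.

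Late chorion transcripts relative to vitelline membrane transcripts, as a ratio of summed TPM, amounted to 0.0861% in control 1, 22.4% in control 2, 8.84% in knockdown 1 and 77.6% in knockdown 2. The groups overlapped in this ratio, since control 2 lay above knockdown 1. Early chorion transcripts amounted to 0.723% of the vitelline membrane sum in control 1, 11.96% in control 2, 30.5% in knockdown 1 and 28.7% in knockdown 2. This ratio was higher in both knockdown libraries than in both controls, and the knockdown libraries lay close together in it. With 2 libraries a group an exact permutation test cannot go below p = 0.333, so that no test was made. The separation was also present under each of 5 other definitions, which use the same 4 libraries and are no independent check. The size of the ratio and the closeness of the knockdown libraries depended on the definition. By class medians the log2 ratio was -3.46 and -1.85 in the controls, against 0.12 and -1.20 in knockdown 1 and knockdown 2. Late chorion transcripts were 11.9% and 187% of early ones in the controls, against 28.9% and 271% in the knockdown libraries, again with library 2 above library 1 in each group.

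**Figure D4:**
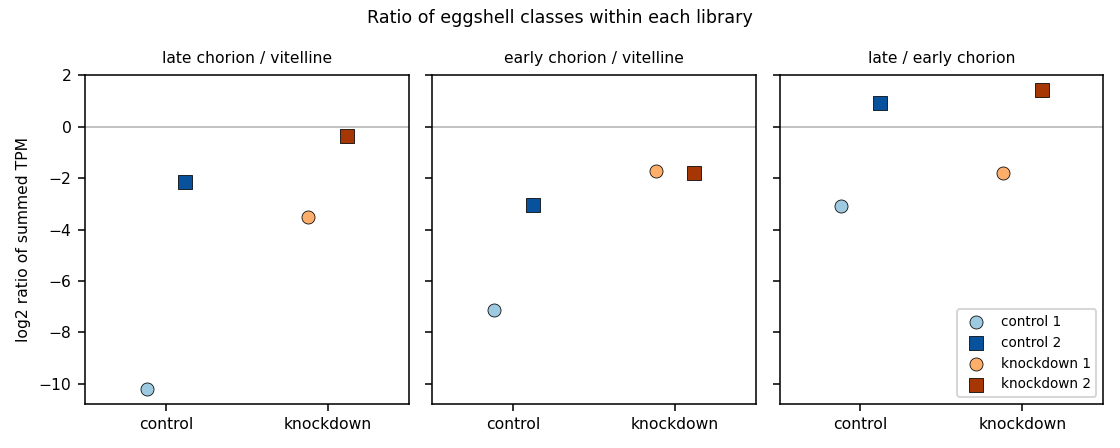
Log2 ratios of summed TPM between classes in each library: late chorion to vitelline membrane, early chorion to vitelline membrane, and late to early chorion. The early chorion ratio lies at -7.11 and -3.06 in the controls and at -1.71 and -1.80 in the knockdown libraries, and the other ratios overlap between the groups.

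The makeup of each class also shifted between libraries. Within the late class, Cp15 held 9.92% of the summed TPM in control 1, 34.1% in control 2, 87.9% in knockdown 1 and 26.8% in knockdown 2. In knockdown 1, Cp15 was thus 45.6 times the level of Cp16 in TPM and 14.5 times that of Cp18, while in control 2 and knockdown 2 these ratios were 2.58 and 2.09, and 1.27 and 0.846. Control 1 had the late genes in another proportion, with Cp19 at 46.0% and Cp18 at 38.5%, from 84 and 70 counts. In the early class, Cp7Fb and Cp7Fc together with Cp36 and Cp38 shared control 1 nearly evenly, at 23.7%, 29.8%, 25.6% and 20.4%. In the other libraries Cp36 and Cp38 held most of the class, with 38.1% and 47.2% in control 2, 36.5% and 45.3% in knockdown 1 and 37.0% and 52.9% in knockdown 2.

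The vitelline membrane class varied less in makeup. Vm34Ca held 31.96% and 37.8% in the controls, against 42.6% and 39.8% in the knockdown libraries, and Vm26Aa held 30.6% to 34.3% in all 4. Vm26Ab, the called member, held 33.0% and 26.8% in the controls, against 18.6% and 20.2% in the knockdown libraries. Its level relative to Vm26Aa was 1.08 and 0.899 in the controls, against 0.562 and 0.589 in the knockdown libraries, a ratio in which the groups did not overlap. The deposited counts of Vm26Aa, Vm26Ab, Vm34Ca, Muc12Ea and CG31661 are not whole numbers, as when reads are divided between similar transcripts, so that the split between Vm26Aa and Vm26Ab is uncertain.

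**Figure D5:**
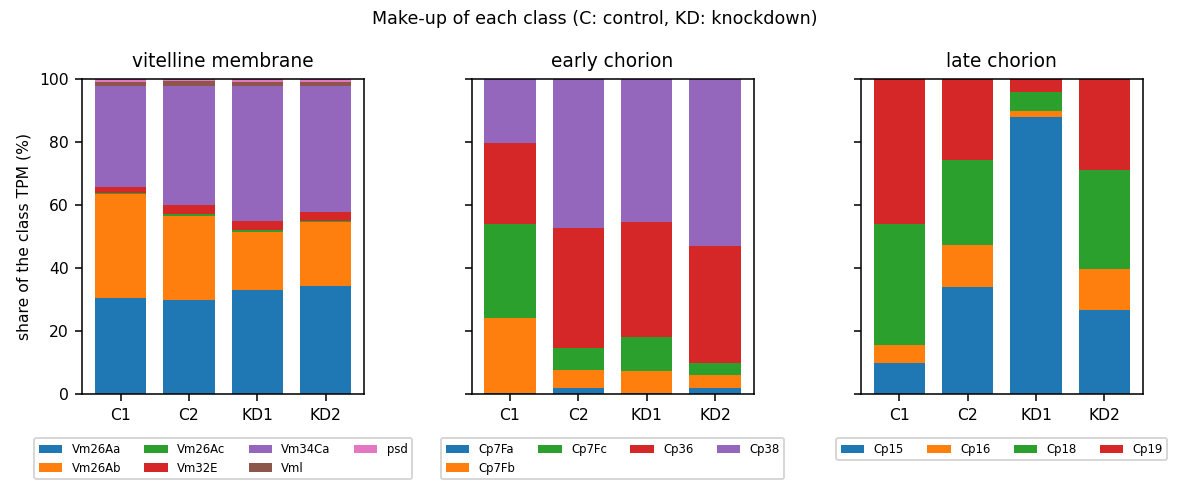
Share of each gene in the summed TPM of its class, as stacked bars from 0 to 100%, in each library (C1 and C2 for the controls, KD1 and KD2 for the knockdown libraries). Cp15 takes 87.9% of the late chorion class in knockdown 1 and 9.92% to 34.1% in the other libraries, while in the vitelline membrane class Vm26Ab takes 33.0% and 26.8% in the controls and less, 18.6% and 20.2%, in the knockdown libraries.

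The genes yellow-g and yellow-g2, members of the yellow family that act in hardening of the eggshell, are neighbours on 3L and had the order of libraries of most early and late chorion genes. The level of yellow-g was 0.448 and 317 TPM in control 1 and control 2 and 34.6 and 156 TPM in knockdown 1 and knockdown 2. For yellow-g2 it was 0.872 and 269 TPM and 33.3 and 117 TPM. Control 1 was the lowest library for both, and the groups overlapped. In CPM, library 2 exceeded library 1 by 686 and 300 times in the controls and by 4.68 and 3.63 times in the knockdown group. In the controls the gap of yellow-g lay inside the late range and that of yellow-g2 between the early and late ranges, and in the knockdown group both lay inside the early range.

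Mucins are heavily glycosylated secreted proteins. Muc4B had no count in control 1, with 96.7 TPM in control 2 and 9.001 and 49.1 TPM in the knockdown libraries. Mur11Da likewise had no count in control 1, with 21.4 TPM in control 2 and 0.306 and 12.5 TPM in the knockdown libraries. Against a floor of 3 counts in control 1, control 2 was at least 938-fold higher for Muc4B and at least 249-fold higher for Mur11Da in CPM. Muc12Ea was the only tested member whose highest value lay in knockdown 2, with 0.0401 and 11.7 TPM in the controls and 1.61 and 21.9 TPM in the knockdown libraries (log2 fold change 0.52, SE 1.97, edgeR adjusted p = 0.851). Femcoat, a neighbour of Muc4B on the X, stood at 0.168 and 147 TPM in the controls and at 0.692 and 90.8 TPM in the knockdown libraries. Fcp3C, a follicle cell protein gene, stood at 20.7 and 109 TPM and at 9.91 and 39.0 TPM, with overlapping groups for both.

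Among the 14 members with CG symbols, CG13992 and CG12398 were lower in both knockdown libraries without a large gap between the controls. CG13992 stood at 48.7 and 34.0 TPM in control 1 and control 2 and at 3.64 and 7.64 TPM in knockdown 1 and knockdown 2. It was 1.48-fold higher in control 1 than in control 2 in CPM, unlike its neighbours of the vitelline membrane class. CG12398 stood at 26.7 and 27.9 TPM in the controls and at 1.64 and 9.79 TPM in the knockdown libraries, with a log2 fold change of -2.73 (SE 0.77, edgeR adjusted p = 0.0530). In CPM, these and the 7 vitelline membrane genes were the 9 of 37 members whose groups did not overlap with the knockdown lower, a share of members below the 37.7% of all genes. CG33258 ran the other way, with 1.03 and 0.333 TPM in the controls and 14.5 and 1.52 TPM in the knockdown libraries (log2 fold change 2.97, SE 1.21, edgeR adjusted p = 0.113). It was the 1 member whose groups did not overlap with the knockdown higher, where 39.3% of all genes were, and it was higher in library 1 than in library 2 in both groups, by 3.18-fold and 9.20-fold.

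In CPM, 10 of the 14 had the order control 2, knockdown 2, knockdown 1, control 1 from high to low. CG13114 had 1.95 CPM in control 1 and 370 in control 2, with 33.0 in knockdown 1 and 150 in knockdown 2. CG15570, in the run with Femcoat and Muc4B, stood at 0.316 and 343 CPM and at 24.3 and 178 CPM. These values put both knockdown libraries between the controls. The neighbours CG13083 and CG13084 on 2L stood at 142 and 140 CPM in control 2 and at 91.9 and 76.5 CPM in knockdown 2, against 0.421 and 0.158 CPM in control 1 and 1.74 and 1.06 CPM in knockdown 1. CG11381 stood at 11.6 and 225 CPM in the controls and at 15.7 and 66.3 CPM in the knockdown libraries, and CG14187 at 4.94 and 27.4 CPM and at 1.501 and 6.23 CPM. The groups overlapped for each of these genes.

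Several of the CG members were below detection in control 1. CG31926, CG31928, CG4066 and CG15571 had 0 counts there and 20.5, 19.8, 13.7 and 10.2 CPM in control 2, which is at least 130, 126, 87.1 and 64.8 times the level of 3 counts in control 1. In knockdown 1 they had 1, 15, 2 and 2 counts, and in knockdown 2 they stood at 14.4, 8.32, 5.30 and 3.17 CPM. For CG31926 the ratio in the knockdown group was 298, with a counting interval of 53.3 to 11794. CG31661, in the run with CG31926 and CG31928 on 2L, stood at 0.999 and 6.503 CPM in the controls and at 2.03 and 4.27 CPM in the knockdown libraries. It was the least variable of the 3, and the single other protein-coding gene within this run, CG33128, had at most 0.196 CPM in any library.

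Each of the 21 tested members outside the vitelline membrane and chorion classes was placed by whether its gap fell inside the range of gaps of a class. In the controls, 6 fell inside the late range, 3 inside the early range, 9 between ranges and 3 below all of them. Mur11Da, Muc4B, CG15571, CG4066, CG31928 and CG31926 had no count in control 1, so their control gaps depend on the value added to CPM. Their places in the controls are therefore not measured: late for Mur11Da and Muc4B, early for CG15571 and CG4066, between ranges for CG31928 and CG31926. In the knockdown group, 6 fell inside the late range (Femcoat, Mur11Da, CG13083, CG13084, CG4066 and CG31926), 11 inside the early range alone, 2 inside both the vitelline membrane and early ranges, 1 inside both the early and late ranges, and 1 below all. The ranges rest on 4 to 7 genes and single libraries.

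Other genes of eggshell formation were read from the same fit. Of 12 genes for eggshell patterning and for cues placed in the vitelline membrane, 8 fell and 0 rose, with a median log2 fold change of -1.79, where 16.1% of all genes fell and 11.8% rose. The same shares are the background of the lists that follow. Among them were Cad99C, a cadherin of follicle cell microvilli (-2.88), slbo, a transcription factor of border cells (-2.46), and fs(1)N and clos (-0.73 and -0.61), which encode vitelline membrane proteins made in the germline. Of 20 tested regulators of late follicle cells, 10 fell, among them ct (-3.52), Eip74EF (-2.02), peb (-1.92) and tai (-1.63), and 1, the ecdysone receptor gene EcR, rose. Of 29 tested genes that act in amplification of the chorion clusters and in DNA replication at large, 9 rose and 1 fell, with a median of 0.73 and with Mcm5 (0.94), Slbp (0.92), mip120 (0.89) and geminin (0.81) among the 9. The yolk protein genes Yp1, Yp2 and Yp3, which follicle cells express as well, fell with a median of -2.86.

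Markers of other tissues were compared with the gaps. The sheath muscle markers, 5 of 6 matched, summed to 1647 CPM in control 1 and 694 CPM in control 2, and to 801 and 648 CPM in the knockdown libraries, so that they were higher in libraries numbered 1, in which the chorion genes were lower. The summed follicle cell markers were 1.29 times as high in control 2 as in control 1. That sum was mostly the 3 yolk protein genes, which had 5200 CPM in control 1 and 7066 in control 2, while each of the other 5 markers was lower in control 2, with sums of 593 and 393 CPM. Hemocyte markers, with He at 0, summed to 107 and 147 CPM in the controls and to 252 and 259 CPM in the knockdown libraries. Nearly all of it was crq, with 101 and 145 CPM in the controls and 238 and 249 CPM in the knockdown libraries. Fat body markers (61.3, 50.4, 45.2 and 32.4 CPM) and testis markers (0.546 to 1.42 CPM) were low. Genes listed for female tract glands summed to 0.794 to 16.5 CPM, most of it Bbd. Bbd, the only tested gene of that list, was higher in the knockdown libraries (log2 fold change 2.95, SE 0.68, edgeR adjusted p = 0.0367). Of all genes, 11.8% were called higher. Midgut markers summed to 31.5 to 109 CPM, nearly all of it LManII. The part of these differences in the eggshell values was not tested.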

How the data were processed

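Poly(A)+ RNA of 2 control and 2 knockdown ovary samples was analysed. Tools named for the series, per the submitters' processing notes, are HTSeq, Bowtie2, DESeq2, HISAT2 and Salmon, and the builds are BDGP5 and dm3; versions and roles are not given in the sources used here. The deposited tables hold estimated counts, the authors' expected counts of reads per gene before any normalization. The deposited TPM values divide these by an effective gene length, given for each library, and sum to 1000000. The step from CPM to TPM can thus differ between genes and libraries. In control 1, Cp7Fb had 73.6 CPM and 44.5 TPM, and Cp7Fc 52.8 CPM and 55.8 TPM. In knockdown 2, Cp7Fb had 84.1 CPM and 158 TPM, and Cp7Fc 101 CPM and 154 TPM. TPM was used as deposited for levels and ratios between genes. The domain list of the HP1 DamID samples was not used here.

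The estimated counts were rounded to whole numbers for edgeR 4.0.16 under R 4.3.3. The filter filterByExpr left 8798 genes and removed 4978. Libraries were scaled by TMM (factors 0.922, 0.922, 1.11 and 1.06) and tested by the quasi-likelihood F test without a block (biological coefficient of variation 0.245, 2 residual degrees of freedom), as fitted on all genes, with Benjamini-Hochberg adjustment and a threshold of 0.05. An SE is the size of the log2 fold change over the square root of its F. Log2 fold changes are knockdown minus control. Gaps between libraries were computed on CPM plus 0.1, with exact counting intervals at 95% and floors of 3 counts per library; both cover counting error only. Alternatives used DESeq2 1.42.0 and limma 3.58.1, and the fit was tested on simulated data.

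Symbols were found for 13483 of 13776 gene identifiers. Arms and neighbours come from a RefSeq gene table of Release 6, used only for names and order. Neighbours were sought among its protein-coding genes, with a step of up to 3 places in their order allowed within a run. By a fixed rule, every member is given its values, fold changes are given for the vitelline membrane and chorion classes and for called members, and up to 4 genes of each pathway list with the smallest adjusted p are named; fold changes of CG12398, CG33258 and Muc12Ea, the lists' remaining names and 2 of the alternatives were chosen after the values were seen. The members and lists were chosen with earlier results of these data known.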

Additional observations from a re-analysis of the deposited data

How the results depend on the processing

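With 2 libraries a group, the SE of each late chorion gene exceeded its fold change, and groups of this size allow no test for a sample that stands apart. Members called lower were 2 as reported, 2 with median-ratio size factors and with TMM without members and yolk genes, 4 with library size alone and without a filter on low counts, 5 with limma-trend on TPM and 8 with DESeq2, which also called 1 higher. Of all 8798 genes, 1415 were lower as reported, 1454 with median-ratio size factors and 1428 with TMM without members and yolk genes. With library size alone 1040 were lower, with limma-trend 664, and with DESeq2 1724 were lower and 1591 higher. Without the filter, 1210 of 12137 genes were lower. With the replicate number as a block, 14 of 37 members were lower, all 7 vitelline membrane genes among them, and 1 higher (CG33258), beside 21.4% and 20.8% of all genes. The labels state no shared day or cross, and the deviations of same-numbered libraries correlated at r = 0.540 over 8798 genes, from 2 pairs only, so the pairing is not taken as given. Vm26Ab and CG13992 were called under each of these settings. Signs turned with limma-trend on TPM for Cp7Fa (0.0099), Cp36 (0.77), Cp38 (1.19), Cp15 (2.59), Cp16 (0.39) and Cp18 (0.22), where the median of all genes was 0.50 (0.25 with library size alone), and with the block for Cp36 (0.23), Cp38 (0.61) and Cp15 (1.27); the cause was not tested. With each library left out in turn, members lower ran from 1 to 9 and higher from 0 to 7. Class medians then ran from -4.46 to -2.07 (vitelline membrane), -2.86 to 3.62 (early), -7.87 to 7.79 (late), -2.64 to 6.56 (crosslinking enzymes), -2.96 to 10.83 (mucins), -5.24 to 3.63 (other named), -3.91 to 6.19 (CG symbols) and -4.29 to 4.92 (all). The same ranges were -5.21 to 4.92 for Cp7Fa, -2.58 to 0.58 for Cp7Fc, -2.86 to 3.62 for Cp36, -2.90 to 4.40 for Cp38, -4.10 to 8.86 for Cp15, -8.23 to 8.51 for Cp16, -7.61 to 7.06 for Cp18 and -8.13 to 6.66 for Cp19. The log2 late to vitelline membrane ratio in knockdown 1 was -6.55 without Cp15 and 0.60 without Vm26Aa, Vm26Ab and Vm34Ca; in knockdown 2 it was 2.97 by class medians and 3.80 without those 3. The early to vitelline membrane ratio was -3.46 by medians and -2.62 without the 3 genes in control 1, 1.116 without them in control 2, -0.27 in CPM, 0.12 by medians, -2.002 with Cp36 and Cp38 alone and 2.39 without the 3 in knockdown 1, and -0.39, -1.20, -1.96 and 2.36 in knockdown 2. The late to early ratio was -4.84 without Cp15 in knockdown 1 and 4.17 by medians in knockdown 2. Median log2 gaps moved in the controls to 1.24 (TPM) for the vitelline membrane class and to 6.57 (library size), 6.46 (TPM) and 5.34 (0.5 added, from 6.69) for all members, and in the knockdown group to 2.27 (library size) and 2.28 (TPM) for the early class and 2.47 (library size) and 2.45 (0.5 added) for all members.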
